A study of Mus musculus with 6 samples.

Results

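The Jumonji (JmjC) histone demethylases described here are 10 genes, Kdm2a, Kdm2b, Kdm3a, Kdm3b, Kdm4a, Kdm4b, Kdm4c, Kdm5b, Kdm6b and Jmjd6. They were picked by name among the 22880 genes of the expression table, by a rule that uses no values but was set with earlier results of these data known. All 10 passed the filter on low counts, which left 12014 genes for testing. MC-38 is a mouse colon adenocarcinoma cell line of C57BL/6 origin, here carrying green fluorescent protein (GFP). Mock cells and cells with a stable knock-down of HIF-1α (HIF-1α-KD) were both transduced with the vector pLKO.1-puro, were not passaged in vivo beforehand, and formed orthotopic tumors in the cecum wall of C57BL/6J mice, whose own cells kept normal HIF-1α. Living cells that carried GFP and lacked CD45 (leukocytes) and CD31 (endothelium) were sorted, and their RNA was sequenced in 3 Mock libraries and 3 libraries of knock-down cells (HIF-1α-KD libraries). The age and sex of the mice were not given in the sources used here, and no source states whether a library came from a single tumor, so p-values measure only the spread between these libraries, which may be technical.

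JmjC enzymes use molecular oxygen, ferrous iron and 2-oxoglutarate to hydroxylate their substrates. Hydroxylation of a methyl group on a histone lysine releases it as formaldehyde, and the subfamilies differ in the lysine they act on. The transcripts of several of these enzymes are known to be induced by hypoxia, with KDM3A and KDM4B as the textbook targets of HIF-1. The comparison asks how the transcript levels of this oxygen-dependent family differ between tumor cells with full and with reduced HIF-1α.

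Start sites of 6 members were listed in the RefSeq promoter sequences of GRCm38.p6, each as a window of 300 bases (250 before and 50 after the start), and none was listed for Kdm2a, Kdm3b, Kdm4b and Kdm6b. The core letters of HIF-binding elements, ACGTG or GCGTG, were searched on both strands, where a match on one strand may overlap a match on the other. Of 32851 windows of all genes, 43.8% held at least 1 match and 20.6% held 2 or more. Among the windows nearest to the 5′ end of each of the 6 genes, 4 held a match. Printed below, 5′ to 3′ in the direction of the gene and with matches in capitals, are windows of 2 members with lower values in all HIF-1α-KD libraries (Kdm3a and Jmjd6) and of 2 members with nearly equal group means (Kdm4a and Kdm4c). The Kdm3a window is chr6:71632868-71633167 on the minus strand with 1 match, the Jmjd6 window is chr11:116843400-116843699 on the minus strand with 2 matches, and the Kdm4a window is chr4:118179994-118180293 on the minus strand with 0 matches. The Kdm4c window is an internal start at chr4:74251629-74251928 on the plus strand with 6 matches, some of which overlap on opposite strands, a number of 4 or more being found in 3.86% of all windows, while the window at the 5′ end of Kdm4c held 0.
Kdm3a: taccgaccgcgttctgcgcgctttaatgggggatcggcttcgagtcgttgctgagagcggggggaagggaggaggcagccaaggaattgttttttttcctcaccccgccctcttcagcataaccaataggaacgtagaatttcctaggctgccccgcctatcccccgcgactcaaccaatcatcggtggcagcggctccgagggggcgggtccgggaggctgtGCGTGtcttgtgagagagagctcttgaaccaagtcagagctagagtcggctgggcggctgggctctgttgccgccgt
Jmjd6: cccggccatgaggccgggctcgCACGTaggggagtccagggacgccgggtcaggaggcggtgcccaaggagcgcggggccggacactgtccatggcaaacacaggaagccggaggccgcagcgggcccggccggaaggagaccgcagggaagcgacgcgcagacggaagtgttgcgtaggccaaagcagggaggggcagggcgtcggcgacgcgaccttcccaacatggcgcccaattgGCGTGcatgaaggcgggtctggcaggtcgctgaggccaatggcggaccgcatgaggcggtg
Kdm4a: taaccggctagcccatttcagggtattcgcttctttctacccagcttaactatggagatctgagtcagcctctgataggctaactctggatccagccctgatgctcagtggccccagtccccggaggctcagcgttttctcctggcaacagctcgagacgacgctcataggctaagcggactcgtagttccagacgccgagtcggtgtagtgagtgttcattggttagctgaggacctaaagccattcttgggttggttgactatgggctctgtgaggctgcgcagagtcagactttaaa
Kdm4c: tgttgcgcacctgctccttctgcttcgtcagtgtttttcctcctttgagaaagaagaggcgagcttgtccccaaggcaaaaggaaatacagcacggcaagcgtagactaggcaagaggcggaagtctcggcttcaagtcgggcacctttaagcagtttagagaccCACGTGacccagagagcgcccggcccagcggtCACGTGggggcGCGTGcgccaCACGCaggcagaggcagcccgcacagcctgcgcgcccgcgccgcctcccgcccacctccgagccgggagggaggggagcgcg
A match is a description of the letters only.

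Normalized counts are reads per gene divided by 1 factor per library. Log2 fold changes compare HIF-1α-KD with Mock on the scale of log2 of the normalized count plus 1, by limma with Benjamini-Hochberg adjustment over all genes tested. Of the 10 members, 0 reached an adjusted p-value under 0.05 by limma, against 0.391% of all genes tested, and 0 by the quasi-likelihood test of edgeR, against 0.391% of all genes. DESeq2 called 1 member, Kdm4b, against 2.36% of all genes. At an unadjusted p-value under 0.05 by limma, 3 members were lower in HIF-1α-KD cells, against 5.69% of all genes, and 0 were higher, against 7.04%. The same 3 members, Kdm4b, Kdm3a and Jmjd6, had lower normalized counts in every HIF-1α-KD library than in any Mock library, a separation found for 8.75% of all genes, and 0 members were separated in the other direction, against 10.4%. The median log2 fold change of the 10 members was -0.0022, beside 0.02 over all genes tested, so the members did not share a direction.

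**Figure D1:**
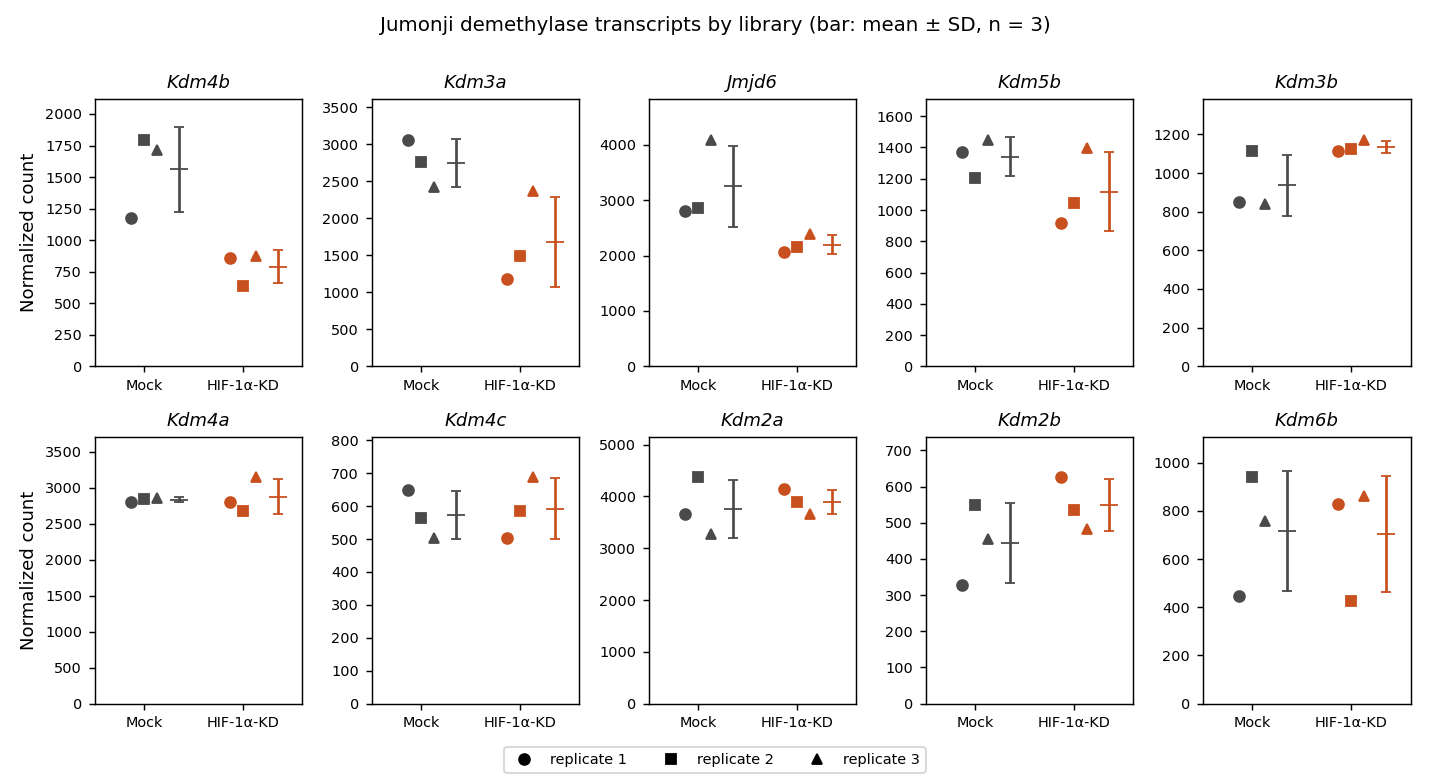
Normalized counts (linear axes from 0) of the 10 members in each of the 3 Mock (grey) and 3 HIF-1α-KD (orange) libraries, with the mean and SD of each group beside the points. The groups are apart for Kdm4b, Kdm3a and Jmjd6 and overlap for the other 7 members, and HIF-1α-KD replicate 3 (2363) lies close to Mock replicate 3 (2417) for Kdm3a.

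The labels were checked on the targeted gene and on reference genes of the hypoxic response. Hif1a had normalized counts of 6914, 5424 and 4945 in Mock libraries and of 697.3, 3142 and 1928 in the knock-down libraries. Its log2 fold change was -1.82 (adjusted p = 0.219 by limma, 0.147 by DESeq2), and it was -1.21 without HIF-1α-KD replicate 1. Of 16 hypoxia reference genes, 16 had a negative log2 fold change and 10 of them fell at an adjusted p-value under 0.05 by limma, with a median log2 fold change of -1.62 over the 16. The 10 were Bnip3, Pdk1, Ankrd37, Egln1, Slc2a1, Ldha, Pgk1, Ndrg1, Ero1l and Mxi1, with log2 fold changes between -2.70 (Bnip3, a mitophagy receptor) and -1.15 (Ldha, lactate dehydrogenase). Libraries held between 19845852 and 30809139 reads on genes, and each member had between 267 and 5142 reads per library. Markers of colon epithelium were scarce in both groups, with 4 of 8 genes under 1 FPKM in every library and a summed level of 1.44 to 13.9 FPKM in Mock and 1.61 to 2.92 in the knock-down libraries, so the labelled colon carcinoma origin could not be read from them. The summed level of 10 leukocyte markers ranged from 116 to 166 FPKM in Mock and from 94.7 to 487 in the knock-down libraries, that of 6 endothelial markers from 5.36 to 6.35 and from 3.82 to 5.44, and that of 7 fibroblast and pericyte markers from 543 to 967 and from 414 to 701. The leukocyte sums were 94.7, 263 and 487 FPKM in HIF-1α-KD replicates 1, 2 and 3, so that replicates 2 and 3 were above every Mock library and replicate 1 was below. Cd74 alone gave 177.8 FPKM of the sum in replicate 2 and was the only marker highest there. In that library Lyz2 (62.93 FPKM) and Cd68 (4.93 FPKM) were below every Mock library. Of the 10 leukocyte markers, 8 were highest in HIF-1α-KD replicate 3, such as the macrophage gene Lyz2, with normalized counts of 1715, 1902 and 8877 in HIF-1α-KD replicates 1, 2 and 3, and 2345 to 2615 in Mock. Cd74, the invariant chain of MHC class II, was highest in HIF-1α-KD replicate 2, with 720.7, 5585 and 2860 in the HIF-1α-KD libraries against 204.4, 213.4 and 1579 in Mock. Its log2 fold change was 2.46 (adjusted p = 0.333 by limma), and it was the only leukocyte marker at an unadjusted p under 0.05. Of the 9 tested leukocyte markers, 3 were higher and 6 lower in HIF-1α-KD cells, with a median log2 fold change of -0.17. Mock replicate 3 held the highest sums of the epithelial (13.9, against 1.54 and 1.44 in the other Mock libraries) and the fibroblast markers (967, against 543 and 557). Dcn alone gave 905.9 FPKM of that fibroblast sum. Of the 7 fibroblast and pericyte markers, 2 were highest in Mock replicate 3 (Dcn and Thy1). In HIF-1α-KD replicate 1, 4 were highest (Pdgfrb, Pdgfra, Lum and Rgs5), and in HIF-1α-KD replicate 3, 1 was (Acta2). Of 6 tested fibroblast and pericyte markers, 4 were higher and 2 lower in HIF-1α-KD cells. Rgs5 had a log2 fold change of 1.15 (adjusted p = 0.315 by limma), Pdgfrb had 0.59 (adjusted p = 0.387 by limma) and Dcn had -0.38. Of 3 tested endothelial markers, 2 were higher and 1 was lower, Cdh5 with -0.84 (adjusted p = 0.294 by limma). No marker was at 0 in all libraries, and the part of other cells in the members' values was not tested. In sorted bulk samples, fewer cells of a type and less RNA per cell cannot be told apart.

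Kdm4b encodes a demethylase of trimethylated lysine 9 of histone H3 (build GRCm38, chr17:56326062-56402870, plus strand, ENSMUSG00000024201). Its normalized counts were 1174, 1794 and 1712 in Mock libraries and 860.6, 636.7 and 874.4 in the knock-down libraries. All 3 HIF-1α-KD values lay below the lowest Mock value, that of replicate 1, which stood well under the other Mock values. The means were 1560 ± 337 and 791 ± 133 (SD, n = 3 each), which gave a log2 fold change of -0.97 (SE 0.21, 95% interval -1.45 to -0.49, adjusted p = 0.161 by limma), or 51.1% of the Mock level with an interval of 36.5% to 71.3%. By unadjusted p-value Kdm4b stood at rank 109 of 12014 genes. DESeq2 on the recovered reads gave a log2 fold change of -0.99 with an adjusted p of 0.00254, so the call for Kdm4b depended on the test. Without the libraries that stood apart on markers, the log2 fold change of Kdm4b by limma was -1.05 (without HIF-1α-KD replicate 3), -0.82 (without HIF-1α-KD replicate 2, adjusted p = 0.395) and -0.89 (without Mock replicate 3).

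The other KDM4 members act on the same residue and on lysine 36 of histone H3, and they gave close group means. Kdm4a (chr4:118136957-118180043, minus strand, ENSMUSG00000033326) had normalized counts of 2794, 2840 and 2857 in Mock libraries and of 2797, 2682 and 3143 in the knock-down libraries. Its highest value was 1.17 times its lowest, the smallest spread of the 10 members, and the log2 fold change was 0.02 (95% interval -0.28 to 0.31). Kdm4c (chr4:74242497-74405860, plus strand, ENSMUSG00000028397) had 650.0, 563.7 and 503.7 in Mock and 502.7, 585.1 and 687.3 in the knock-down libraries, with a log2 fold change of 0.04 (95% interval -0.38 to 0.47). As a percentage of Mock, the interval for Kdm4a ran from 82.6% to 124%.

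Kdm3a encodes a demethylase of mono- and dimethylated lysine 9 of histone H3 (chr6:71588972-71632990, minus strand, ENSMUSG00000053470). Its normalized counts were 3057, 2766 and 2417 in Mock libraries and 1184, 1494 and 2363 in the knock-down libraries. The groups were separated only by the narrow gap between the replicates numbered 3, and on the FPKM scale, which divides by gene length and by the reads of the library, HIF-1α-KD replicate 3 (20.62) was above Mock replicate 3 (19.59). The means were 2747 ± 320 and 1680 ± 611 (SD, n = 3 each), with a log2 fold change of -0.76 (SE 0.24, 95% interval -1.32 to -0.21, adjusted p = 0.293 by limma), or 58.9% of Mock with an interval of 40.2% to 86.5%. HIF-1α-KD replicate 3 was also the library with the highest leukocyte marker sum, whose part in the Kdm3a value was not tested. Without it, the log2 fold change of Kdm3a by limma was -1.04 with an adjusted p of 0.0838, while without HIF-1α-KD replicate 1 the log2 fold change was -0.54. Over the libraries left out in turn, the adjusted p of Kdm3a by limma lay between 0.0838 and 0.582. Among the HIF-1α-KD libraries, Kdm3a and Hif1a were both lowest in replicate 1, and Kdm3a was highest in replicate 3 and Hif1a in replicate 2.

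Kdm3b (chr18:34777047-34838660, plus strand, ENSMUSG00000038773), the paralog of Kdm3a with the same substrate class, lay on the other side of 0. Its normalized counts were 850.7, 1116 and 840.7 in Mock libraries and 1116, 1122 and 1171 in the knock-down libraries. The HIF-1α-KD values were nearly equal to each other, and Mock replicate 2 reached their lower end, without which the log2 fold change was 0.43. The log2 fold change was 0.29 (SE 0.16, 95% interval -0.08 to 0.66, adjusted p = 0.493 by limma).

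Ratios between paralogs of 1 library do not depend on its scaling, and they were compared on FPKM for 5 pairs. The ratio of Kdm3a to Kdm3b was 5.29, 3.65 and 4.23 in Mock libraries and 1.56, 1.96 and 2.97 in the knock-down libraries. The ratio of Kdm4b to Kdm4a was 0.585, 0.879 and 0.833 in Mock and 0.428, 0.330 and 0.387 in the knock-down libraries. The ratio of Kdm4b to Kdm4c was 1.63, 2.88 and 3.07 in Mock and 1.55, 0.984 and 1.15 in the knock-down libraries. All 3 ratios were lower in every HIF-1α-KD library than in any Mock library, with log2 differences of -1.06, -0.99 and -1.01. Each had a two-sided exact permutation p of 0.1, the smallest that 3 libraries against 3 allow, and an adjusted p of 0.167 over the 5 pairs by the exact permutation test. The ratios of Kdm4a to Kdm4c and of Kdm2a to Kdm2b overlapped between the groups, with log2 differences of -0.03 and -0.27 and exact permutation p-values of 0.9 and 0.3. Without Mock replicate 1, the difference for Kdm2a to Kdm2b was -0.083. As a share of the summed FPKM of Kdm4a, Kdm4b and Kdm4c, Kdm4b made up 36.6% ± 5.68 in Mock and 22.5% ± 2.65 in the knock-down libraries (SD, n = 3 each), while the sum itself was 76.8 ± 7.65 and 66.3 ± 7.25 FPKM. Kdm3a made up 81.2% ± 2.82 and 67.3% ± 6.99 of the FPKM of both KDM3 genes, whose sum was 28.0 ± 3.30 and 21.1 ± 5.82 FPKM.

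**Figure D2:**
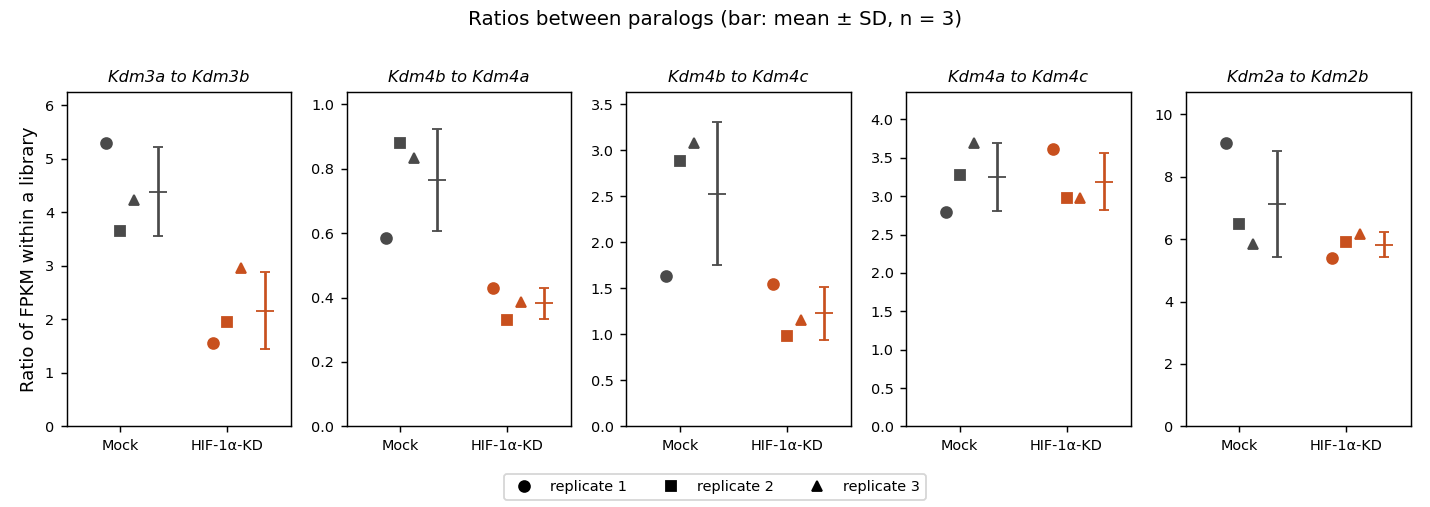
Ratio of the FPKM values of 2 paralogs within each library (linear axes from 0), for 5 pairs, with the mean and SD of 3 libraries beside the points. The 3 ratios of Kdm3a or Kdm4b to a paralog are apart between Mock (grey) and HIF-1α-KD (orange), with log2 differences of -1.06, -0.99 and -1.01, and the other 2 ratios overlap.

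Jmjd6 encodes a nuclear JmjC protein with lysyl hydroxylase activity, for which arginine demethylation has also been reported (chr11:116837432-116843449, minus strand, ENSMUSG00000056962). Its normalized counts were 2807, 2857 and 4088 in Mock libraries and 2056, 2156 and 2386 in the knock-down libraries. The HIF-1α-KD values were close to each other and below all Mock values, of which replicate 3 stood apart upwards. That library also held the highest sums of epithelial and of fibroblast markers, the latter mostly from Dcn. Their part was not tested, and without that library the log2 fold change of Jmjd6 was -0.37, with an adjusted p of 0.409 by limma. The means were 3251 ± 726 and 2199 ± 169 (SD, n = 3 each), with a log2 fold change of -0.54 (SE 0.18, 95% interval -0.94 to -0.14, adjusted p = 0.294 by limma), or 68.6% of Mock with an interval of 52.0% to 90.5%. Jmjd6 shares 172 of its 4698 exonic bases with Mettl23, a methyltransferase gene on the opposite strand. Mettl23 had mean normalized counts of 1831 ± 294 in Mock and 1301 ± 87.5 in the knock-down libraries (SD, n = 3 each), with a log2 fold change of -0.48 (95% interval -0.85 to -0.12, adjusted p = 0.303 by limma). The sources used here do not state whether the counting used strand, and the part of shared reads in either value was not tested.

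The remaining members overlapped between the groups. Kdm5b, which removes methyl groups from lysine 4 of histone H3, had normalized counts of 1370, 1204 and 1448 in Mock libraries and of 914.5, 1043 and 1397 in the knock-down libraries (chr1:134560171-134635285, plus strand, ENSMUSG00000042207). HIF-1α-KD replicates 1 and 2 were below all Mock values and replicate 3, the library with the highest leukocyte marker sum, was within them, with a log2 fold change of -0.28 (95% interval -0.71 to 0.14, adjusted p = 0.575 by limma). The log2 fold change of Kdm5b was -0.15 without HIF-1α-KD replicate 1 and -0.45 without HIF-1α-KD replicate 3. Kdm6b, a demethylase of lysine 27 of histone H3 induced in inflammation, had 446.9, 938.8 and 757.4 in Mock and 827.6, 425.7 and 859.4 in the knock-down libraries (chr11:69398508-69413675, minus strand, ENSMUSG00000018476). With 1 low library in each group, Kdm6b had the widest interval of the members, -0.80 to 0.75 around a log2 fold change of -0.02.

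The KDM2 enzymes remove methyl groups from lysine 36 of histone H3, and Kdm2b also recruits a non-canonical Polycomb repressive complex to CpG islands. Kdm2a had normalized counts of 3662, 4369 and 3266 in Mock libraries and of 4136, 3887 and 3670 in the knock-down libraries (chr19:4314419-4398285, minus strand, ENSMUSG00000054611), with a log2 fold change of 0.06 (95% interval -0.28 to 0.40). Kdm2b had 328.7, 548.3 and 454.2 in Mock and 625.8, 534.8 and 484.0 in the knock-down libraries (chr5:122870665-122989823, minus strand, ENSMUSG00000029475). Its highest value was in HIF-1α-KD replicate 1 and its lowest in Mock replicate 1, with a log2 fold change of 0.33 (95% interval -0.18 to 0.84, adjusted p = 0.580 by limma). The log2 fold change of Kdm2b was 0.13 without Mock replicate 1 and 0.50 without Mock replicate 2. Kdm2b shares 627 of its 10869 exonic bases with Rnf34 on the opposite strand, whose 95% interval of the log2 fold change was -0.54 to 0.25. A total of 9 genes that act with Kdm2b in that Polycomb complex were tested, of which 0 passed an unadjusted p of 0.05 in either direction, and their median log2 fold change was 0.07. The smallest p-values among them belonged to Usp7 (0.25), Ring1 (-0.25) and Rnf2 (-0.22), values in parentheses being log2 fold changes. Ring1 had -0.16 without Mock replicate 3 and without HIF-1α-KD replicate 2, and Rnf2 had 0.0093 without Mock replicate 1 and -0.40 without Mock replicate 3.

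**Figure D3:**
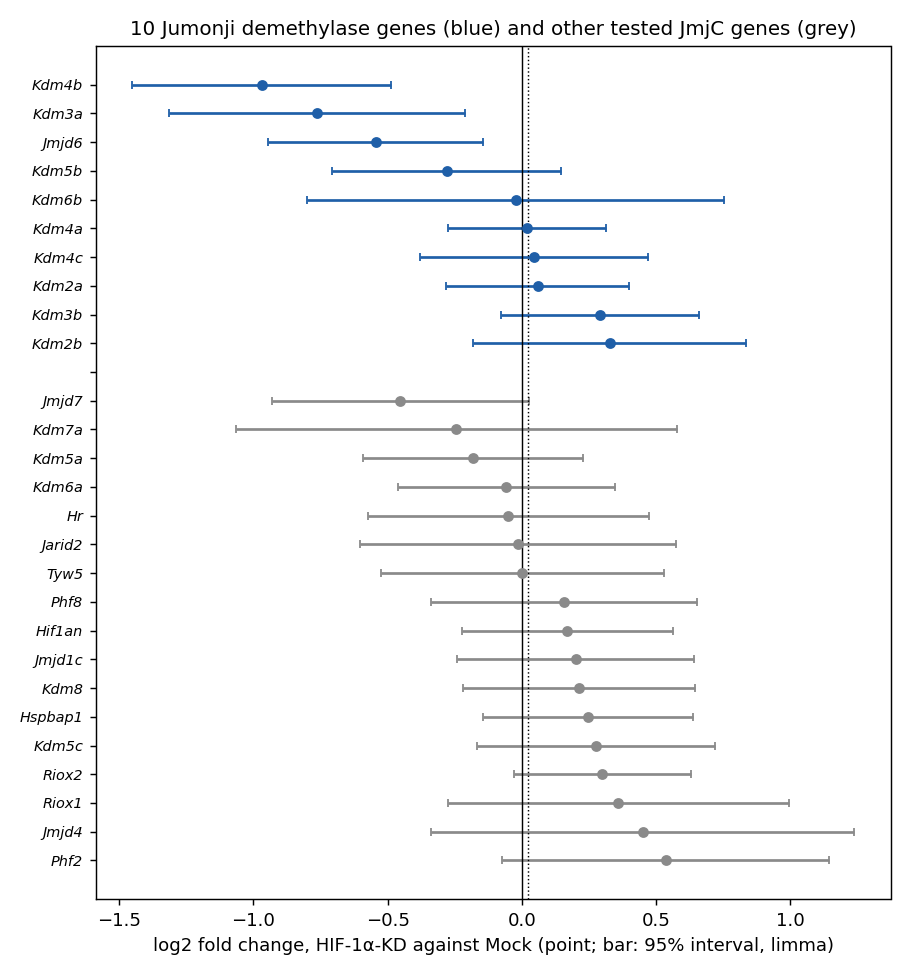
Log2 fold change of HIF-1α-KD against Mock with its 95% interval from limma, for the 10 members (blue) and the 17 other tested JmjC genes (grey); the solid line marks 0 and the dotted line the median of all genes tested (0.02). The intervals of Kdm4b (-1.45 to -0.49), Kdm3a (-1.32 to -0.21) and Jmjd6 (-0.94 to -0.14) lie below 0, and those of the other 7 members include 0.

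Levels were compared between genes per length, on FPKM. In Mock cells the order of mean FPKM was Jmjd6 (69.99 ± 14.5), Kdm2a (58.5 ± 10.8), Kdm4a (36.9 ± 1.57), Kdm4b (28.4 ± 6.81), Kdm3a (22.7 ± 2.73), Kdm5b (13.03 ± 0.80), Kdm4c (11.48 ± 1.44), Kdm2b (8.48 ± 2.39), Kdm6b (7.76 ± 2.94) and Kdm3b (5.28 ± 1.09; SD, n = 3 each). The median over all genes tested was 13.4 FPKM, so 5 members were above it. Neighbours in this order were separated in all 3 Mock libraries for Kdm2a over Kdm4a, Kdm4a over Kdm4b and Kdm3a over Kdm5b, each also found in 6 of 6 libraries, and the ranges of the other neighbours overlapped. In HIF-1α-KD cells the mean FPKM of Jmjd6 was 49.4 ± 4.78 and that of Kdm2a 62.7 ± 2.44, so that Kdm2a took the first place, and Jmjd6 was above Kdm2a in 2 of the 6 libraries. Kdm4b (14.9 ± 2.42) and Kdm3a (14.5 ± 5.52) kept places 4 and 5 in HIF-1α-KD cells.

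**Figure D4:**
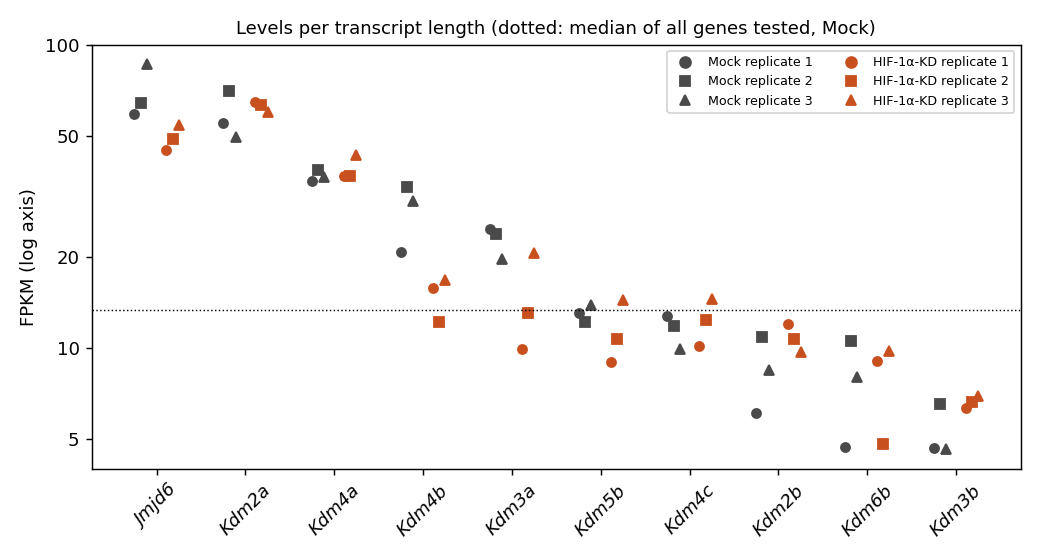
FPKM (log axis) of the 10 members in each library, ordered by their mean in Mock (grey); HIF-1α-KD libraries are in orange, and the dotted line is the median Mock FPKM of all genes tested (13.4). Jmjd6 and Kdm2a lie highest, Kdm3b lies lowest in mean (5.28 in Mock), and the orange points of Kdm4b and of 2 Kdm3a libraries lie near the dotted line.

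Likeness between genes was described by Pearson's r of log2 values over the 6 libraries, which contain the difference between the groups. Of the 45 pairs of members, 2 had an r over 0.8, Kdm3a with Kdm5b (0.872) and Kdm4b with Jmjd6 (0.834), and the median was 0.123. Kdm3a and Kdm5b shared HIF-1α-KD replicate 1 as their lowest library and had their highest HIF-1α-KD value in replicate 3. The lowest r was that of Kdm3b with Jmjd6 (-0.761). Among all genes tested, those most like Kdm3a were Phf11a (0.997), Rlf (0.994), Epb4.1l2 (0.993), Slc2a9 (0.991) and Trib1 (0.989), and 171 genes had an r over 0.9. Those most like Kdm4b were Cited1 (0.995), Arrdc1 (0.995), Galk1 (0.983), Sorbs3 (0.974) and Mus81 (0.971), and 95 genes had an r over 0.9.

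The other genes of the JmjC family, 21 in a list written from general knowledge, were set beside the members. The filter on low counts removed 4 of them, Kdm4d, Kdm5d, Uty and Jmjd8. Of the 17 that were tested, 11 were higher and 6 lower, 0 reached an unadjusted p under 0.05 in either direction by limma, 0 were called by edgeR or DESeq2, and their median log2 fold change was 0.17. Their median minus that of all genes was 0.15, and it was 0.046 without HIF-1α-KD replicate 1 and 0.061 without Mock replicate 3. The smallest p-values belonged to Jmjd7, a lysyl hydroxylase, with a log2 fold change of -0.45 (95% interval -0.93 to 0.03), to Riox2, a ribosomal oxygenase, with 0.30 (-0.03 to 0.63), and to Phf2, a lysine demethylase, with 0.54 (-0.07 to 1.14). Phf2 had 0.29 without HIF-1α-KD replicate 1, its highest library, and 0.34 without Mock replicate 1. Without overlap of the groups, 1 of the 17 was lower, Jmjd7, and 3 were higher, Riox2 and (named after their values were seen) Kdm8 and Hspbap1, beside the 8.75% and 10.4% of all genes. The flavin-dependent demethylases, which do not belong to the JmjC family, gave log2 fold changes of 0.19 for Kdm1a (95% interval -0.11 to 0.49) and -0.32 for Kdm1b (-0.78 to 0.15). Kdm1b had -0.52 without Mock replicate 3 and -0.15 without Mock replicate 1.

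The writers of the same histone marks were described from 4 lists with 22 genes in all, of which 17 were higher and 5 lower in HIF-1α-KD cells, with 0 at an adjusted p under 0.05 by limma, edgeR or DESeq2. At an unadjusted p under 0.05 by limma, 5 of the 22 were higher and 1 was lower, against 7.04% and 5.69% of all genes. Among the methyltransferases of lysine 36, the residue that KDM2 and KDM4 enzymes demethylate, 6 of 6 had a positive log2 fold change, the median was 0.47, and 4 had an unadjusted p under 0.05, against 7.04% of all genes. Setd2, which places the trimethyl mark, had normalized counts of 1539, 2199 and 1754 in Mock libraries and of 2281, 2488 and 3390 in the knock-down libraries. All HIF-1α-KD values of Setd2 were above all Mock values, and the log2 fold change was 0.57 (95% interval 0.11 to 1.02, adjusted p = 0.320 by limma). Nsd1 and Ash1l, which place lower methyl states, had log2 fold changes of 0.53 (95% interval 0.05 to 1.00) and 0.54 (0.01 to 1.06), and the fourth gene, Nsd2, named after its value was seen, had 0.41. Mock replicate 1 was the lowest of the 6 libraries for all 4 genes. The unadjusted p was no longer under 0.05 without Mock replicate 1, Mock replicate 3 or HIF-1α-KD replicate 3 for Setd2, Nsd1 and Ash1l alike, nor without HIF-1α-KD replicate 1 for Nsd1 and replicate 2 for Ash1l, with log2 fold changes between 0.37 and 0.74 over all libraries left out in turn. Among the methyltransferases of lysine 4, the residue of Kdm5b, 6 of 6 were positive with a median of 0.57, and 1 had an unadjusted p under 0.05, Kmt2a with 0.75 (0.09 to 1.41). Mock replicate 1 was the lowest of the 6 libraries for all 6 of these genes, and their median minus that of all genes, 0.55 with all libraries, was 0.20 without it and 0.78 without Mock replicate 2. Kmt2a was no longer under an unadjusted p of 0.05 without Mock replicate 1 (0.46), Mock replicate 3 (0.80) or HIF-1α-KD replicate 3 (0.54), log2 fold changes being given in parentheses. Kmt2c and Setd1a followed with 0.54 (-0.01 to 1.08) and 0.57 (-0.02 to 1.16), and Setd1a had 0.29 without Mock replicate 1.

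For lysine 9, the residue of Kdm3a and Kdm4b, 4 of 6 methyltransferase genes were higher and 2 lower, with a median log2 fold change of 0.13 and 0 at an unadjusted p under 0.05. Ehmt1 had 0.35 (95% interval -0.04 to 0.74), Setdb1 0.33 (-0.06 to 0.72) and Setdb2 -0.37 (-0.98 to 0.25). Setdb1 had 0.50 without HIF-1α-KD replicate 1, and Setdb2 had -0.21 without that library, -0.23 without Mock replicate 1 and -0.58 without Mock replicate 3. The median of this list minus that of all genes was 0.11, and it was 0.040 without HIF-1α-KD replicate 1, 0.21 without Mock replicate 2 and 0.17 without HIF-1α-KD replicate 3. In the complex that methylates lysine 27, the residue of Kdm6b, 1 of 4 genes was higher and 3 lower. Ezh1, a catalytic subunit, had normalized counts of 1800, 1427 and 1155 in Mock libraries and of 975.6, 1038 and 1115 in the knock-down libraries, without overlap and with a log2 fold change of -0.46 (-0.88 to -0.04, adjusted p = 0.371 by limma). Its log2 fold change was -0.30 without Mock replicate 1, and the unadjusted p was no longer under 0.05 without that library, Mock replicate 2, or HIF-1α-KD replicate 1 or 2. Ezh2, the other catalytic subunit, and Suz12 had values near 0, of 0.04 (-0.26 to 0.33) and -0.05 (-0.41 to 0.31).

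The oxygen-dependent dioxygenases of nucleic acids, which share the cofactors of the JmjC enzymes, gave 5 higher and 7 lower genes of 12 with a median log2 fold change of -0.05. Alkbh5, which removes N6-methyl groups from adenosine in RNA, had normalized counts of 6241, 5253 and 4260 in Mock libraries and of 3161, 3398 and 3418 in the knock-down libraries. All HIF-1α-KD values were below all Mock values, and the log2 fold change was -0.64 (SE 0.16, 95% interval -1.01 to -0.27, adjusted p = 0.219 by limma, 0.0238 by DESeq2). Fto, which acts on related marks, had -0.23 (-0.55 to 0.09), and Alkbh1 had 0.32 (-0.22 to 0.86), with 0.11 without HIF-1α-KD replicate 3 and 0.54 without HIF-1α-KD replicate 1.

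**Figure D5:**
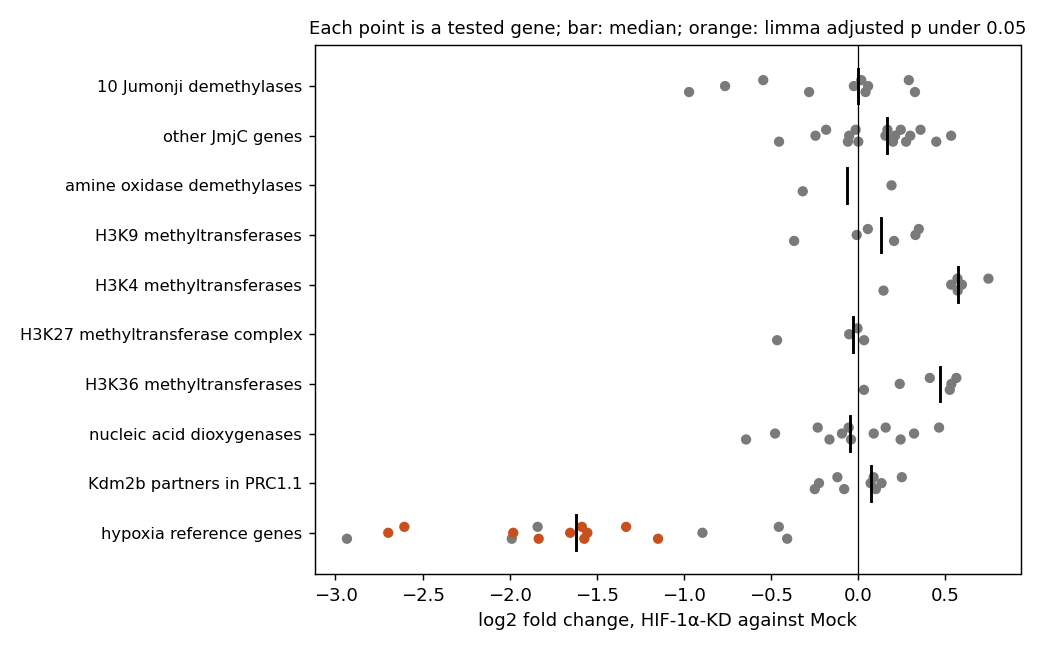
Log2 fold change of HIF-1α-KD against Mock for each tested gene of the 10 members and of 9 lists, with the median as a black bar and genes at an adjusted p under 0.05 by limma in orange. Orange points occur only among the hypoxia reference genes (10 of 16), the medians of the lysine 4 and lysine 36 methyltransferases are 0.57 and 0.47, and the members spread on both sides of 0.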

How the data were processed

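RNA of sorted MC-38 tumor cells was measured in 3 Mock and 3 HIF-1α-KD libraries, grouped by their labels. Per the paper's methods, poly-A RNA was prepared with a stranded kit, and reads were trimmed, aligned with STAR and counted with featureCounts. The methods name GRCh38, whereas the submitters' processing notes name GRCm38 (with STAR and edgeR) and the deposited genes carry mouse identifiers.

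The authors deposited 1 table. It holds normalized counts, a signal made by the authors as counts divided by 1 factor per library, and FPKM values per kilobase and total reads, both deposited with 4 significant digits. The deposited GC fraction and the deposited width describe the transcript as the authors give it. The deposited log2 ratio, p-value and false discovery rate are the authors' own comparison and were not used. Dividing out the factor recovered the reads, and 100% of values up to 300 reads were whole within 0.1.

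Genes were kept by filterByExpr of edgeR 4.0.16 (minimum count of 10). Limma 3.58.1 with a mean-variance trend was run on log2(normalized count + 1), two-sided, as planned for normalized values. This scale understates fold changes of low genes. Alternatives were edgeR and DESeq2 1.42.0 on recovered reads, other scalings, filters and pseudocounts (0.1 and 10), limma without trend, a replicate block and each library left out. The main limma fit, edgeR and DESeq2 were checked on simulated data, and the exact permutation test and the other settings were not. Software was R 4.3.3 and Python 3.11.15 with matplotlib 3.10.9, scipy 1.17.1, numpy 2.4.6 and pandas 2.3.3.

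The members and lists were chosen with earlier results of these data known. Genes named are the members, Hif1a, each list's genes at an adjusted p under 0.05 or otherwise up to 3 with the smallest p, and the 5 most like Kdm3a and Kdm4b. Outside the rule, Mettl23 and Rnf34 were named for their overlap with members (GENCODE vM21), Kdm8, Hspbap1 and Nsd2 after their values were seen, and Kdm4d, Kdm5d, Uty and Jmjd8 because the filter removed them. Marker genes are given by their sums and by Cd74 (smallest p among leukocyte markers). The other markers named, among them Lyz2, Cd68, Dcn, Rgs5, Pdgfrb and Cdh5, were named after their values were seen.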

Additional observations from a re-analysis of the deposited data

How the results depend on the processing

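Under 16 alternatives, 0 members were called, except 1 with DESeq2, and 3 members had an unadjusted p under 0.05, or 4 when Mock replicate 2 or HIF-1α-KD replicate 3 was left out. Unadjusted p-values of Kdm4b, Kdm3a and Jmjd6 were under 0.05 in all 16. With each library left out, the log2 fold change of Kdm4b lay between -1.16 and -0.82, that of Kdm3a between -1.04 and -0.54 and that of Jmjd6 between -0.64 and -0.37, and the count of members without overlap between 3 and 6 (6 without Mock replicate 2, 3 with all libraries). Scaling by the library total gave 2 members without overlap. The share of all genes without overlap was not counted under these settings, so these counts have no background. Groups also separate more readily with fewer libraries. The median of the members minus that of all genes was -0.02 and lay between -0.16 and 0.04. Genes called numbered 47 of 12014, against 283 with DESeq2, 1 with limma without trend (1397 at an unadjusted p under 0.05), and 0 to 37 with each library left out (0 without Mock replicate 3 or HIF-1α-KD replicate 2, 2 without Mock replicate 1, 9 without HIF-1α-KD replicate 3, 11 without Mock replicate 2). List genes called numbered 10, against 0 with limma without trend and 0 to 11 with a library left out (0, 2, 3 and 5 without those libraries, in the same order). The cause was not tested.

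The labels name no pairing, and libraries with the same replicate number had correlations of deviations of -0.139, -0.123 and 0.02. With 3 libraries per group, these values cannot exclude a pairing. With the replicate block, limma called 0 of all genes (1324 at an unadjusted p under 0.05) and 0 list genes, and adjusted p-values were 0.265 for Kdm4b, 0.367 for Kdm3a and 0.342 for Jmjd6.

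Signs turned for some values near 0. Scaling by the library total gave 0.033 for Kdm6b and 0.0058 for Suz12 on the log2 scale. With each library left out, log2 fold changes ranged from -0.33 to 0.31 for Kdm6b, -0.039 to 0.17 for Kdm2a, -0.047 to 0.067 for Kdm4a, -0.070 to 0.16 for Kdm4c, -0.0013 to 0.080 for Ezh2, -0.40 to 0.0093 for Rnf2 and -0.19 to 0.056 for Suz12. The medians of lists minus that of all genes ranged, with each library left out, from 0.046 to 0.21 for other JmjC genes, 0.20 to 0.78 for lysine 4, 0.31 to 0.56 for lysine 36 and 0.040 to 0.21 for lysine 9 methyltransferases, -0.10 to 0.054 for nucleic acid dioxygenases and -0.033 to 0.045 for partners of Kdm2b.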
